A study of Mus musculus with 40 samples.

Results

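The major urinary protein genes Mup1, Mup2, Mup3, Mup7, Mup10, Mup11, Mup14, Mup17, Mup20 and Mup21 were examined in mouse liver after repeated exposure to the dioxin TCDD, short for 2,3,7,8-tetrachlorodibenzo-p-dioxin, a persistent ligand of the aryl hydrocarbon receptor (AhR). The 10 genes were named by symbol, out of 55359 gene identifiers in the count files, with earlier results of these data known. A further 39 Mup genes and pseudogenes in the files were not in this set. Male C57BL/6 mice received sesame oil, the vehicle, or TCDD in it by gavage at intervals of 4 days over 28 days, and there were 8 groups of 5 mice. Dosed mice received 0.03, 0.1 or 0.3 µg/kg, 1 or 3 µg/kg, or 10 or 30 µg/kg. All mice carried the same strain background with no allele or other agent added, were 30 days old at the start and 58 days old at the end. The 7 comparisons share 1 set of 5 vehicle mice, and nothing in the labels pairs a dosed mouse with a vehicle mouse.

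Major urinary proteins are small secreted lipocalins, barrel-shaped carriers of hydrophobic ligands. In mice they are made mostly in the liver, pass into the blood, are filtered by the kidney and reach the urine, where they bind and slowly release volatile pheromones. Male liver makes more of them than female liver, and their transcription depends on the pulsed male pattern of growth hormone acting through STAT5 and on testosterone. The genes form a tandem cluster in which most copies are nearly identical, and the others are more diverged.

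Total counts in genes ranged from 15496128 to 20967093 per library. No pair of libraries within a group agreed within sampling noise. Cyp1a1, the P450 gene most often used as a marker of AhR activation, lay between 0.979 and 2.33 CPM (counts scaled to a common library size) in the vehicle mice, between 109 and 237 CPM at 0.03 µg/kg and between 4746 and 6370 CPM at 30 µg/kg. Of the 6 tested hepatocyte markers, 5 were called lower at 30 µg/kg, the albumin gene Alb among them, beside 18.9% of all tested genes. The summed level of the 6 was 28804 to 60984 CPM there against 100254 to 122382 CPM in vehicle.

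The coding sequences of the 10 genes are shown because they set how well each gene can be counted apart from the others. Mup1, Mup2, Mup7, Mup10, Mup11, Mup14 and Mup17 shared 98.3% to 99.4% of their coding bases with one another. Mup20, whose protein darcin is a male pheromone, shared 90.1% to 91.3% with these copies. Mup3 and Mup21 shared 94.7% with each other and 82.6% to 85.0% with the near-identical copies. The stretch of 60 coding bases below, taken from the GENCODE M21 transcripts, begins at coding base 155 in Mup1, and capitals mark bases that differ from Mup1. Mup2, Mup7 and Mup11 have the same bases as Mup1 here.
Mup1: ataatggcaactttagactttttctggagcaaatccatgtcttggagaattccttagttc
Mup10: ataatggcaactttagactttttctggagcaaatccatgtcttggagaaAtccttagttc
Mup14: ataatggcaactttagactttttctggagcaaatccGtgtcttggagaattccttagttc
Mup17: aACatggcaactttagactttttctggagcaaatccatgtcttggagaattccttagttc
Mup20: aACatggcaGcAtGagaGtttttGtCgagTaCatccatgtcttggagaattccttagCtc
Mup3: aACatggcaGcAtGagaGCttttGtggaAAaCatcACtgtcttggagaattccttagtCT
Mup21: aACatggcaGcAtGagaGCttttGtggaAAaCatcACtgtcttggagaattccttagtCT
In this stretch Mup3 and Mup21 were identical to each other and differed from Mup1 at 15 bases, while Mup20 differed at 11, Mup17 at 2 and Mup10 and Mup14 at 1.

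Reads that matched several genes equally well were not counted, so the unevenness of the copies carries over to their counts. Of the 150-base windows of each main transcript, 100% were found in no other gene for Mup3 and Mup21, 68.9% for Mup20 and 59.6% for Mup17. For Mup7, Mup11, Mup14, Mup1, Mup10 and Mup2 the share was between 22.5% and 9.25%. Levels of these 6 genes are therefore levels of their own unshared bases, and reads of near-identical copies may be split among them. The multimapped share of all reads was 6.14 ± 0.427% (SD, n = 5) in vehicle and 6.98 ± 0.448% at 30 µg/kg (2-sided exact permutation test, p = 0.0159, adjusted over 7 doses 0.111).

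The bases upstream of the start sites are shown for Mup3 and Mup21, a pair close in sequence whose shares of the members' reads moved apart, and for Mup2 and Mup17, as a pair of near-identical copies beside it. RefSeq (GRCm38.p6) gave 250 upstream bases for 8 of the 10 members, all on the minus strand. They lie at chr4:62087318-62087567 for Mup3, chr4:62150842-62151091 for Mup21, chr4:60139857-60140106 for Mup2 and chr4:61595833-61596082 for Mup17, and capitals mark the letters TATATAA.
Mup3: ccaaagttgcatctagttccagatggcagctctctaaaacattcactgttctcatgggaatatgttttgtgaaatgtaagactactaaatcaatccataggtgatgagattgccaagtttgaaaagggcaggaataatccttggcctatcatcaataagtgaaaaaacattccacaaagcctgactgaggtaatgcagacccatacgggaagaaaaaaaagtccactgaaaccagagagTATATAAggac
Mup21: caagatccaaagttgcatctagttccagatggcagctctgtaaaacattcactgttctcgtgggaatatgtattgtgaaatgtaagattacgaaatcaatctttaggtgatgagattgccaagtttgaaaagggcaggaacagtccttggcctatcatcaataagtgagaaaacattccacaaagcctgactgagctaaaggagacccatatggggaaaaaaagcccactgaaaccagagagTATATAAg
Mup2: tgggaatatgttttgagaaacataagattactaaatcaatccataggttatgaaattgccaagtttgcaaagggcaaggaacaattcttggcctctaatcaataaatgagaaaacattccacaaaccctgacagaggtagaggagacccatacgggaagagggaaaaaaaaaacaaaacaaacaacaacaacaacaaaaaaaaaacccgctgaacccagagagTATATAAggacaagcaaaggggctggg
Mup17: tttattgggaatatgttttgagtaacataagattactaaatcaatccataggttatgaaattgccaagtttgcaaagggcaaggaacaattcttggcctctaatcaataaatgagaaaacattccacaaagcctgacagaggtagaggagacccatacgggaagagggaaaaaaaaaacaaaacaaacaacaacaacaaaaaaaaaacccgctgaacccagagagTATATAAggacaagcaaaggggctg
Mup3 and Mup21 shared 89.1% of these bases, and Mup2 and Mup17 shared 95.3%. The letters TATATAA were found on either strand in 5 of the 8 member windows and in 3.04% of the 32851 windows of the same length in the table. The windows end at annotated starts that differ between members. That of Mup11 ends within the stretch where Mup2 and Mup17 have TATATAA, and those of Mup7 and Mup14 end farther upstream. The 8 windows belong to related copies and are not independent. The spaced palindrome TTCNNNGAA, the core read by STAT factors, was in 0 of 8 member windows and 7.02% of all windows, and GCGTG, the core of the AhR response element, was in 0 of 8 and 28.2% of all windows, both strands counted and no match overlapping TATATAA.

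By fold change, hepatic Mup transcripts fell steeply at the highest dose. A gene was called changed when its Benjamini-Hochberg adjusted p in the edgeR quasi-likelihood test over all 15373 genes tested was under 0.05 and its fold change was at least 1.5. All 9 members that passed the low-count filter were called lower at 30 µg/kg, where 18.9% of all tested genes were. At 10 µg/kg it was 5 of 9, beside 8.13% of all genes, and at 3 µg/kg it was Mup3 alone, 1 of 9, beside 2.22%. At 0.03, 0.1, 0.3 and 1 µg/kg the count was 0 of 9, beside 0%, 0.013%, 0.065% and 0.637% of all genes. The unadjusted edgeR p was under 0.05 for 0, 0, 0 and 1 member at those 4 doses, and limma called 0 members there. DESeq2 also called 0, but it gave no p for Mup3 at any dose. No member was called higher at any dose.

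The median log2 fold change over the 9 tested members was -0.01 at 3 µg/kg, -1.36 at 10 µg/kg and -5.20 at 30 µg/kg, where the median over all tested genes was -0.00021, 0.009 and 0.03. Mup10, with at most 17 counts in any library, did not pass the filter. With Mup10 included, 7 of the 10 members had all 5 mice below all 5 vehicle mice at 30 µg/kg, beside 17.9% of all tested genes, and the exceptions were Mup10, Mup17 and Mup21. In bulk liver RNA a fall in a transcript per hepatocyte and a fall in the share of hepatocytes cannot be told apart.

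**Figure D1:**
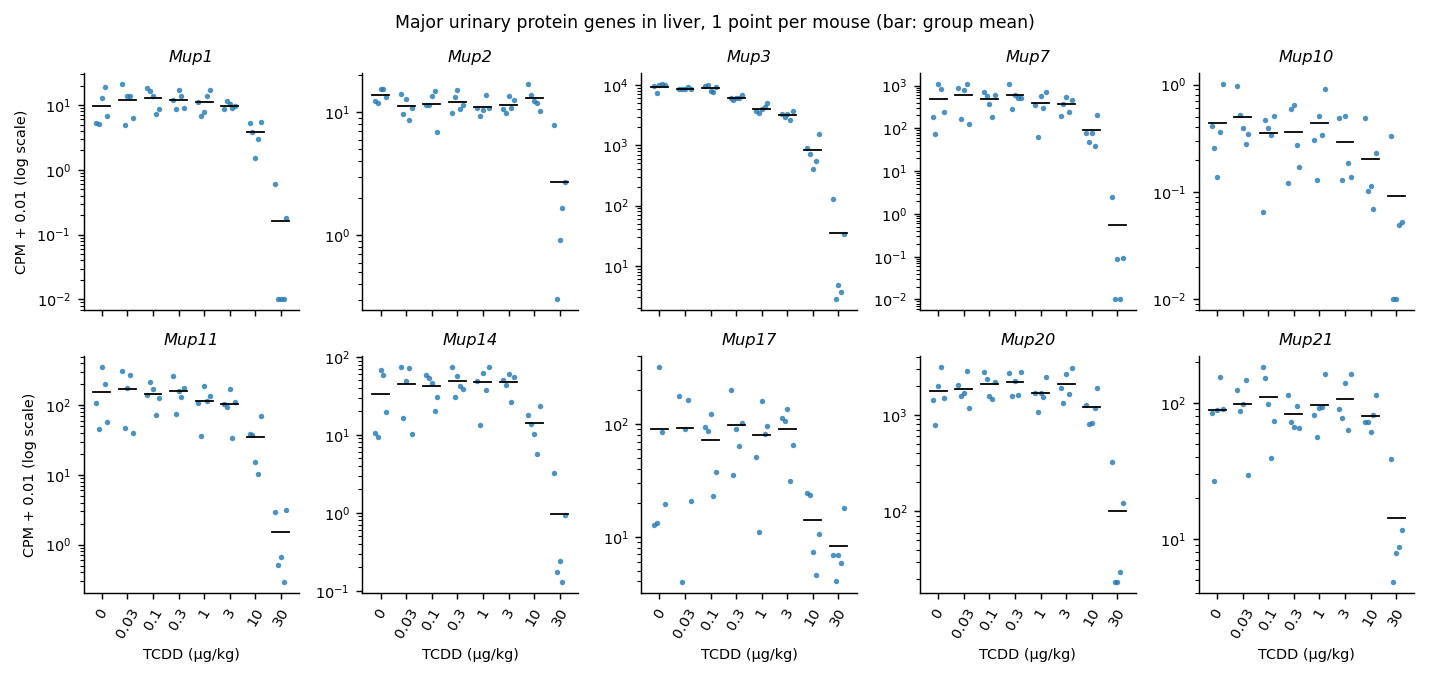
CPM of each of the 10 genes in each mouse (log scale, 0.01 added to every value) against TCDD dose in µg/kg, 1 point per mouse and a bar at the group mean. Mup3 steps down from 0.3 µg/kg, with little spread in its groups up to 3 µg/kg and a wide spread at 30 µg/kg, most other members spread widely in vehicle, and at 30 µg/kg replicates 1 and 5 sit above the other 3 mice for most members.

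Mup3 (ENSMUSG00000066154) had the highest counted level of the members in vehicle and was the member called at the lowest dose, 3 µg/kg in the shared fit. Multimapped reads of the near-identical copies are left out of this ranking. Its level in the 5 vehicle mice was 9524, 7452, 9973, 10420 and 9857 CPM. At 0.3 µg/kg it was 6176, 5675, 5993, 6113 and 6785 CPM. At 1 µg/kg it was 3674, 3444, 3990, 4310 and 4982 CPM. Every mouse at both doses lay below every vehicle mouse, as was so for 0.969% and 3.13% of all tested genes.

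At 3 µg/kg Mup3 was at 3271, 2969, 3326, 2601 and 3771 CPM. At 10 µg/kg it had fallen to 890, 727, 402, 558 and 1536 CPM, and at 30 µg/kg to 128, 2.74, 4.80, 3.69 and 34.2 CPM. The group mean passed from 9445 ± 1159 CPM in vehicle (SD, n = 5) to 65.1%, 43.2%, 33.7%, 8.71% and 0.367% of that value at 0.3, 1, 3, 10 and 30 µg/kg. Replicates 1 and 5 at 30 µg/kg retained far more Mup3 than the other 3 mice, yet both lay below every mouse of the 10 µg/kg group.

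TCDD repressed Mup3 2.96-fold at 3 µg/kg (log2 fold change -1.57 ± 0.52, SE, edgeR adjusted p = 0.048), 11.5-fold at 10 µg/kg (-3.52 ± 0.56, adjusted p = 5.7e-06) and 273-fold at 30 µg/kg (-8.09 ± 0.70, adjusted p = 1.9e-12). In the same fit the values at 0.3 and 1 µg/kg, -0.62 and -1.21, had edgeR adjusted p of 0.90 and 0.23. Fits of vehicle and the single dose alone called Mup3 lower at both (edgeR adjusted p = 0.0041 and 1.2e-05). The shared fit uses 1 estimate of the spread for all groups. The coefficient of variation of Mup3 was 12.3% in vehicle, 13.7% at 3 µg/kg and 155% at 30 µg/kg. Whether this difference in spread set the calls was not tested. The call at 3 µg/kg was lost when any 1 of the 10 vehicle or 3 µg/kg libraries was left out of the shared fit, with a log2 fold change between -1.64 and -1.5 and an edgeR adjusted p between 0.056 and 0.10.

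Mup20 (ENSMUSG00000078672), the darcin gene, had the next highest counted level and was called lower at 30 µg/kg only. Vehicle mice had 1414, 787, 2007, 3152 and 1487 CPM. The 10 µg/kg mice had 1267, 812, 816, 1165 and 1915 CPM. All 5 lay within the vehicle range, and the log2 fold change of -0.57 ± 0.48 was not called (edgeR adjusted p = 0.40).

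In the 30 µg/kg group Mup20 was at 323, 18.3, 18.5, 23.6 and 121 CPM, below every vehicle mouse. It was repressed 17.5-fold (log2 fold change -4.13 ± 0.55, edgeR adjusted p = 4.0e-08). Replicates 1 and 5 again had the highest values.

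Mup21 (ENSMUSG00000066153), the closest relative of Mup3 among the 10, was likewise called lower at 30 µg/kg only. Its level was 84.7, 26.7, 89.8, 156 and 91.1 CPM in vehicle and 72.3, 73.2, 61.3, 82.5 and 115 CPM at 10 µg/kg. The groups overlapped fully, and the log2 fold change at 10 µg/kg was -0.15 ± 0.43 (edgeR adjusted p = 0.84), a value that turned to 0.051 when libraries were scaled by total counts alone. Mup21 was then, at 30 µg/kg, at 38.6, 4.78, 7.81, 8.69 and 11.5 CPM and was repressed 6.30-fold (log2 fold change -2.65 ± 0.46, edgeR adjusted p = 6.7e-06). The highest of these mice lay within the vehicle range, and the other 4 lay below it.

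Mup2 had the smallest spread in vehicle of the near-identical copies. It was at 12.3, 12.0, 15.5, 15.4 and 13.4 CPM in vehicle and at 17.0, 13.9, 12.4, 11.9 and 10.3 CPM at 10 µg/kg, and the groups overlapped. The log2 fold change was -0.065 ± 0.33 (edgeR adjusted p = 0.91), and 0.16 with scaling by total counts alone. It fell at 30 µg/kg to 7.86, 0.291, 0.914, 1.67 and 2.7 CPM, all below vehicle, a 5.16-fold repression (log2 fold change -2.37 ± 0.36, edgeR adjusted p = 6.0e-07). Only 9.25% of the windows of Mup2 are its own, so these counts cover a small part of its transcript.

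Mup7, Mup11, Mup1, Mup14 and Mup17, the other tested near-identical copies, differed widely among untreated mice. Mup7 was at 184, 75.8, 1075, 821 and 242 CPM in vehicle and at 78.0, 48.3, 79.3, 39.6 and 203 CPM at 10 µg/kg, where replicate 5 stood above the rest. In the 30 µg/kg mice it was at 2.50, 0, 0.0762, 0 and 0.0842 CPM, the deepest fall of the 9 tested members (log2 fold change -9.90 ± 1.01, edgeR adjusted p = 1.2e-10). It ranked 6 of 15373 genes from the most negative log2 fold change, and Mup3 ranked 9.

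Mup11 was at 107, 46.3, 357, 204 and 56.7 CPM in vehicle, 38.6, 38.0, 15.4, 10.5 and 70.6 CPM at 10 µg/kg and 2.91, 0.499, 0.648, 0.278 and 3.08 CPM at 30 µg/kg. Mup1 was at 5.22, 5.03, 12.9, 18.9 and 6.80 CPM in vehicle, 5.27, 3.78, 1.51, 2.94 and 5.44 CPM at 10 µg/kg and 0.601, 0, 0, 0 and 0.168 CPM at 30 µg/kg. Mup14 was at 10.6, 9.26, 68.4, 59.5 and 19.8 CPM in vehicle, 17.9, 13.6, 10.3, 5.76 and 23.8 CPM at 10 µg/kg and 3.28, 0.166, 0.229, 0.119 and 0.927 CPM at 30 µg/kg. For these 3 genes the 10 µg/kg and vehicle mice overlapped, and the 30 µg/kg mice lay below all vehicle mice.

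At 10 µg/kg the log2 fold changes called by edgeR were -2.42 ± 0.68 for Mup7 (adjusted p = 0.0056), -2.15 ± 0.59 for Mup11 (adjusted p = 0.0041) and -1.36 ± 0.42 for Mup1 (adjusted p = 0.011). Mup14, at -1.23 ± 0.55, was not called (adjusted p = 0.085). Mup11 was repressed 105-fold, Mup1 65.1-fold and Mup14 36.7-fold at 30 µg/kg (log2 fold changes -6.72 ± 0.75, -6.02 ± 0.60 and -5.20 ± 0.70). Without replicate 1 of that dose Mup1 was at -7.69 and Mup14 at -6.54. At 10 µg/kg the call of Mup1 was lost without vehicle replicate 4 (-0.97, adjusted p = 0.082), and Mup14 was called without vehicle replicate 1 or 2 (-1.46 and -1.47).

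For Mup17 the size of the fall rested on vehicle replicates 3 and 4. In vehicle it was at 12.8, 13.2, 323, 85.3 and 19.3 CPM, so that replicate 3 alone held most of the group's level. The 10 µg/kg mice had 24.6, 23.7, 7.34, 4.59 and 10.7 CPM, and the 30 µg/kg mice 6.89, 3.99, 6.86, 5.79 and 18.0 CPM. The groups overlapped at both doses. The log2 fold change was -2.67 ± 0.81 at 10 µg/kg (edgeR adjusted p = 0.0095) and -3.45 ± 0.84 at 30 µg/kg (adjusted p = 5.9e-04), and without vehicle replicates 3 and 4 it was -0.10 (adjusted p = 0.95) and -0.88 (adjusted p = 0.35). Without replicate 3 alone it was -1.19 at 10 µg/kg (adjusted p = 0.23) and -1.97 at 30 µg/kg (adjusted p = 0.025), and at 30 µg/kg the call held in all 10 fits without 1 library. Mup10 had 2 to 14 counts per vehicle library and 0 to 7 at 30 µg/kg, too few for the shared fit.

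**Figure D2:**
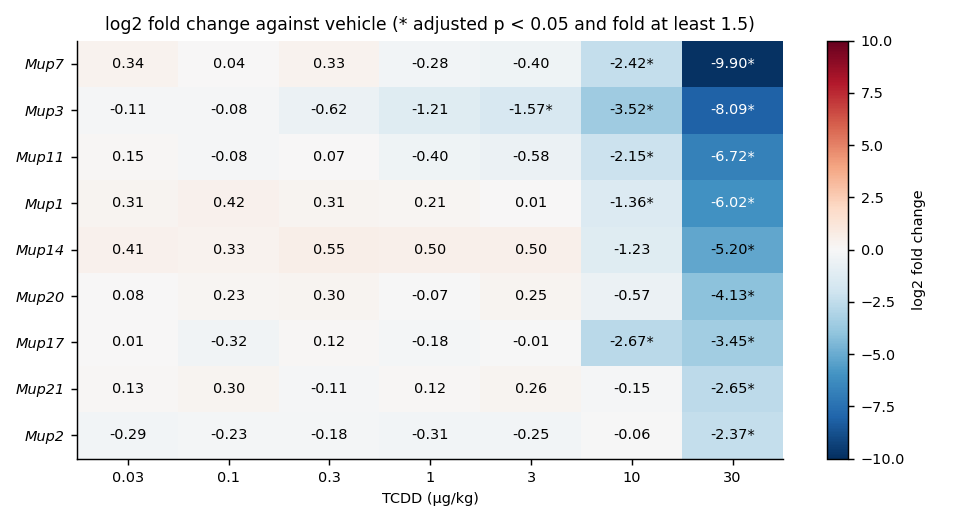
Grid of log2 fold changes against vehicle, with the 9 tested members as lines ordered by their value at 30 µg/kg and the 7 TCDD doses in µg/kg as columns, blue for lower and red for higher, an asterisk marking called values. Mup3 is the member called at 3 µg/kg, 5 members are called at 10 µg/kg and all 9 at 30 µg/kg, from -2.37 for Mup2 to -9.90 for Mup7.

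The spread among vehicle mice differed between members and bears on the calls at 10 µg/kg. The coefficient of variation in vehicle was 147% for Mup17, 92.0% for Mup7, 84.3% for Mup14 and 84.0% for Mup11, and 12.3% for Mup3 and 12.2% for Mup2. Among the 8858 genes with a vehicle mean of at least 100 counts, the median was 12.2% and the 95th percentile 30.0%. Vehicle replicates 3 and 4 had the highest pair of values for Mup1, Mup2, Mup3, Mup7, Mup11, Mup14, Mup17 and Mup20. With both left out, Mup3 alone was called at 10 µg/kg (log2 fold change -3.46), while Mup1, Mup7 and Mup11 stood at -0.59, -0.91 and -1.03 (edgeR adjusted p 0.37, 0.37 and 0.23). Without them 9 members were still called at 30 µg/kg, Mup10 in place of Mup17. The summed hepatocyte markers of these 2 mice were 100254 and 107516 CPM, and those of the other 3 vehicle mice were 104759 to 122382 CPM.

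The 30 µg/kg mice also differed among themselves in other liver transcripts. Replicates 1 and 5, with the highest values of most members, had summed hepatocyte markers of 60984 and 48253 CPM, and the other 3 had 28804 to 39168 CPM. Their Cyp1a1 levels, 6225 and 6370 CPM, were the highest of the group. With replicate 1 alone left out, the log2 fold change was -9.71 for Mup3, -13.31 for Mup7, -5.30 for Mup20, -3.46 for Mup21 and -3.31 for Mup2. Without both libraries all 10 members were called lower, with log2 fold changes of -11.31 for Mup3, -13.81 for Mup7 and -6.47 for Mup20.

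Within the dose series the largest log2 steps came late. The summed level of the members was at 98.4%, 54.0%, 49.9%, 18.8% and 1.36% of the vehicle mean at 0.1, 1, 3, 10 and 30 µg/kg. A large part of the sum was thus lost by 1 µg/kg, mostly through Mup3, the larger part of it in vehicle. Mup3 was then at 43.2% of its vehicle mean. The other members ranged from 75.9% for Mup11 to 141% for Mup14, with Mup20 at 95.2%. In the step from 3 to 10 µg/kg, which uses no vehicle mouse, edgeR called 4 of 9 members lower, beside 2.34% of all genes. These were Mup17 (log2 fold change -2.66, adjusted p = 0.029), Mup3 (-1.95, adjusted p = 0.014), Mup14 (-1.73, adjusted p = 0.040) and Mup1 (-1.37, adjusted p = 0.030). Mup7 at -2.02 (adjusted p = 0.051) and Mup11 at -1.57 (adjusted p = 0.081) were not called, and neither were Mup20, Mup21 and Mup2, at -0.82, -0.41 and 0.19.

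In the step from 10 to 30 µg/kg edgeR called 8 of 9 members lower, beside 10.6% of all genes, from -7.48 for Mup7 to -2.30 for Mup2. Mup17 was the exception, at -0.78 ± 0.79 (adjusted p = 0.49). A linear trend over the 8 ordered groups was negative and past the threshold for 8 of 9 members, beside 26.1% of all genes. Its slope was steepest for Mup3, -0.72 log2 units per step (edgeR adjusted p = 4e-06), and Mup21, at -0.16 per step, did not pass (adjusted p = 0.055).

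Per kilobase of exon, Mup3 led the vehicle livers at 8844 ± 1086 CPM per kb (SD, n = 5), apart from Mup20 at 1907 ± 955. Mup7 followed at 464 ± 427, then Mup21 at 132 ± 67.5, Mup17 at 98.0 ± 144, Mup11 at 97.8 ± 82.1, Mup14 at 24.3 ± 20.4, Mup2 at 10.3 ± 1.25 and Mup1 at 6.17 ± 3.81 CPM per kb. From Mup20 down to Mup1 each gene overlapped the next in that order. Mup10, at 0.306 CPM per kb, lay apart from and below the rest. For the near-identical copies these levels leave out multimapped reads.

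The order at the top turned at high dose. Mup20 was above Mup3 per kb in 0 of 5 mice in vehicle and at every dose up to 3 µg/kg, and in 5 of 5 mice at both 10 and 30 µg/kg. In the 10 µg/kg mice Mup20 was at 1288 ± 486 and Mup3 at 770 ± 410 CPM per kb. In the 30 µg/kg mice they were at 109 ± 142 and 32.5 ± 50.4 CPM per kb.

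Together the 10 genes took on average 1.12% of the counts assigned to genes in a vehicle liver (0.807% to 1.38%). After scaling their sum was 12086 ± 2524 CPM. Multimapped reads are not in this sum, so the near-identical copies may count for less in it than their transcripts do. Their sum was 96.2%, 98.4%, 77.4%, 54.0%, 49.9%, 18.8% and 1.36% of the vehicle mean from 0.03 to 30 µg/kg. The sum was 1406 to 3890 CPM at 10 µg/kg and 30.8 to 514 CPM at 30 µg/kg, below the vehicle range of 8428 to 14932 CPM. No test was made of this sum, of which Mup3 was the larger part in vehicle and Mup20 at 10 and 30 µg/kg.

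The members did not decline in proportion. Each gene's share of the reads counted in the 10 genes is a ratio within a library and does not depend on how libraries are scaled. Multimapped reads are left out of it, so it is not a share of all Mup transcripts. Mup3 held 79.5 ± 8.24% in vehicle, 35.2 ± 5.80% at 10 µg/kg and 14.4 ± 6.95% at 30 µg/kg. Mup20 held 14.0 ± 4.38%, 53.6 ± 6.38% and 57.1 ± 7.07%. Mup20 thus held the largest mean share at both high doses.

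Mup21 rose from 0.705 ± 0.262% of the members' reads to 3.78 ± 0.730% and 13.7 ± 6.58%, and Mup2 from 0.116 ± 0.015% to 0.655 ± 0.238% and 2.00 ± 1.12%. Mup17 held 0.666%, 0.683% and 10.8 ± 5.98%. Mup7 held 3.56%, 3.79% and 0.144%. A larger share here is a loss smaller than that of the other members together, since no member's level was called higher. All shares are parts of the same total, so the fall of Mup3, the largest part in vehicle, by itself raises the others.

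Of 20 exact permutation tests of these shares, 13 passed after adjustment. The tests are not independent of one another, because each share is set against the other members. Those at 10 µg/kg were Mup3 lower and Mup1, Mup2, Mup14, Mup20 and Mup21 higher. Those at 30 µg/kg were Mup3 and Mup7 lower and Mup2, Mup10, Mup17, Mup20 and Mup21 higher, with Mup10 resting on 0 to 7 counts per library. At 10 µg/kg the share of Mup1 passed in 7 and that of Mup14 in 3 of the 10 tests without 1 library. For Mup2, Mup3, Mup20 and Mup21 all 5 dosed mice lay on the same side of all 5 vehicle mice at both doses (2-sided exact permutation p = 0.00794, the smallest 5 against 5 allows, adjusted p = 0.0159). The pair Mup3 and Mup21, alike in sequence, thus moved in opposite directions as shares, by -2.93 and 2.54 log2 odds at 10 µg/kg. The level of Mup21 was there at 90.3% of its vehicle mean and not called, so its larger share did not mean a higher level. For Mup2 and Mup17, the other pair, both shares rose at 30 µg/kg, by 4.01 and 4.80 log2 odds. At 10 µg/kg they were at 2.41 and, not passing, 0.73 log2 odds (exact permutation p = 0.468 for Mup17), and the difference between this pair was not tested.

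**Figure D3:**
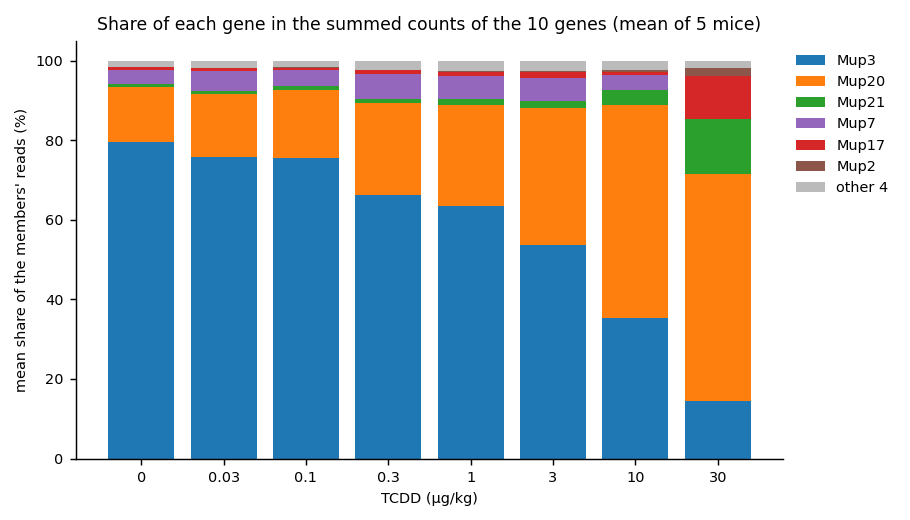
Mean share (%) of each gene in the counts summed over the 10 genes, 5 mice per bar, against TCDD dose in µg/kg (0 is vehicle), with Mup1, Mup10, Mup11 and Mup14 joined as other 4. The Mup3 band shrinks from 79.5% to 14.4% while the Mup20 band grows from 14.0% to 57.1%.

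The count files hold 39 more Mup genes and pseudogenes of the cluster, of which 19 passed the filter. Of the 19, 14 were called lower and 1 higher at 30 µg/kg, with a median log2 fold change of -3.26, and at 10 µg/kg 7 were called lower and 3 higher, with a median of -1.16. The shares of all genes called lower at these doses were 18.9% and 8.13%. Those called higher were 23.2% and 13.6%, and 4.53% at 3 µg/kg and 2.15% at 1 µg/kg. Coding genes called lower at both doses were Mup8, Mup9, Mup15, Mup16, Mup19 and Mup22, and Mup6, Mup12 and Mup18 were called at 30 µg/kg alone. Mup19 had a log2 fold change of -3.27 ± 0.65 at 10 µg/kg and -6.18 ± 0.84 at 30 µg/kg, and Mup22, steady in vehicle at 61.2 ± 10.4 CPM, had -1.16 ± 0.46 and -3.72 ± 0.51.

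Every Mup feature called higher was a pseudogene. Mup-ps10 passed the low-count filter only through the dosed mice in which it was high. It could therefore be called higher but not lower, and such passing can raise the share called higher. Mup-ps10 had 0 counts in all 5 vehicle mice, 2 to 10 counts per library at 1 µg/kg, 10 to 31 at 3 µg/kg, 48 to 197 at 10 µg/kg and 9 to 228 at 30 µg/kg. Against a floor of 3 counts over the vehicle group it was at least 10.6-fold higher at 1 µg/kg, 36.4-fold at 3 µg/kg and 63.7-fold at 30 µg/kg. Its mean was highest at 10 µg/kg, 5.90 ± 2.60 CPM, and edgeR called it at these 4 doses. Replicate 1 at 30 µg/kg, with the most of several members, also had the 228 counts of Mup-ps10, and the other 4 mice had 9 to 21.

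Mup-ps12 and Mup-ps14 were called higher at 10 µg/kg (log2 fold change 2.38 ± 0.60 and 2.44 ± 0.60, edgeR adjusted p = 0.0020 and 0.0017) and, at 1.15 and 1.07, not at 30 µg/kg. Mup-ps20 went the other way. It had 2 to 70 counts per vehicle library and 0 in all 5 mice at 10 µg/kg, at least 67.8-fold lower against the same floor. Multimapped reads are not in these counts, and whether reads of coding copies reach the pseudogenes was not tested.

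**Figure D4:**
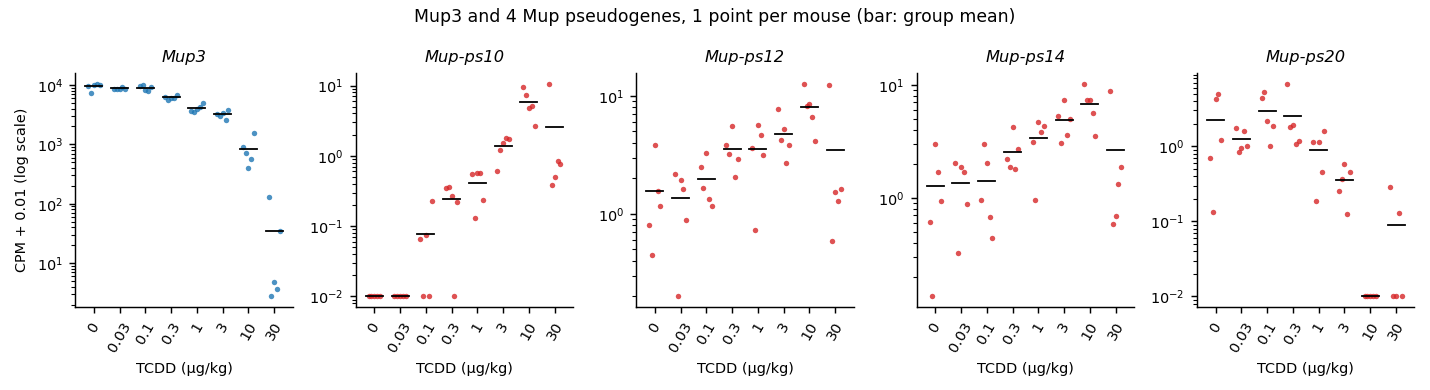
CPM in each mouse (log scale, 0.01 added) of Mup3 and of the pseudogenes Mup-ps10, Mup-ps12, Mup-ps14 and Mup-ps20 against TCDD dose in µg/kg, with a bar at the group mean. Mup-ps10 climbs from 0 counts in vehicle to a peak at 10 µg/kg over the doses at which Mup3 declines, and Mup-ps20 reaches 0 counts in all mice at 10 µg/kg.

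Genes of the growth hormone and STAT5 pathway, which drives male Mup transcription, were called lower mostly at 30 µg/kg. Of 16 listed genes, 11 were called lower at 30 µg/kg and 2 at 10 µg/kg, none higher, beside 18.9% and 8.13% of all tested genes called lower, with a median log2 fold change of -0.90 at 30 µg/kg. Ghr, the growth hormone receptor, fell by 1.16 at 10 µg/kg and by 2.33 at 30 µg/kg on the log2 scale. In the 30 µg/kg mice Stat5b, the transcription factor that relays the signal, was at -0.88 ± 0.15, Igf1, its hormone target, at -1.60 ± 0.25, and Igfals, the IGF-binding acid-labile subunit, at -2.25 ± 0.42. Onecut1, a liver transcription factor, was at -3.05 ± 0.77 at 30 µg/kg. Socs2, a feedback inhibitor and STAT5 target, stood at -0.23 ± 0.66 and was not called (edgeR adjusted p = 0.79).

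Other sex-biased liver genes separated by direction. Of 14 tested male-biased genes, 9 were called lower at 10 µg/kg and 14 at 30 µg/kg, none higher, beside the same 8.13% and 18.9% of all genes, with medians of -1.35 and -4.65. Hsd3b5, a male-specific steroid dehydrogenase, was at -11.66 ± 0.91 at 30 µg/kg, and Elovl3, a fatty acid elongase, at -9.95 ± 0.59. Susd4, a complement regulator, was at -7.69 ± 0.54, and Cyp4a12a, an arachidonic acid hydroxylase, at -6.23 ± 0.57.

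Of 15 listed female-biased genes, 9 passed the low-count filter. Sult2a1 passed it only through the dosed mice in which it was high, and such passing can raise the share called higher. Of these 9, 6 were called higher at 10 µg/kg and 7 at 30 µg/kg, none lower, beside 13.6% and 23.2% of all genes. Their median log2 fold change was 3.26 and 3.60, or 2.23 and 3.60 with Sult2a1, which had 0 counts in vehicle, set at its bound of at least 3.31-fold and 310-fold. At 30 µg/kg Cyp2a4 rose by 8.62 ± 0.96 and Cyp2b13 by 6.13 ± 0.71 on the log2 scale, both steroid-metabolizing P450 genes. These lists are named for their use in sex-biased liver expression, and all mice here were male.

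Lipocalins outside the Mup cluster went in both directions. Of 9 tested, 4 were called lower and 3 higher at 30 µg/kg, beside 18.9% and 23.2% of all genes, with a median of -0.44. Ptgds, prostaglandin D synthase, was at -5.76 ± 0.63 and Ambp, the alpha-1-microglobulin precursor, at -1.87 ± 0.17, while the acute-phase genes Lcn2 and Orm2 were at 4.58 ± 0.60 and 2.11 ± 0.44. Orm1, another acute-phase gene, went the other way, at -1.81 ± 0.27, and is named here after its value was seen.

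**Figure D5:**
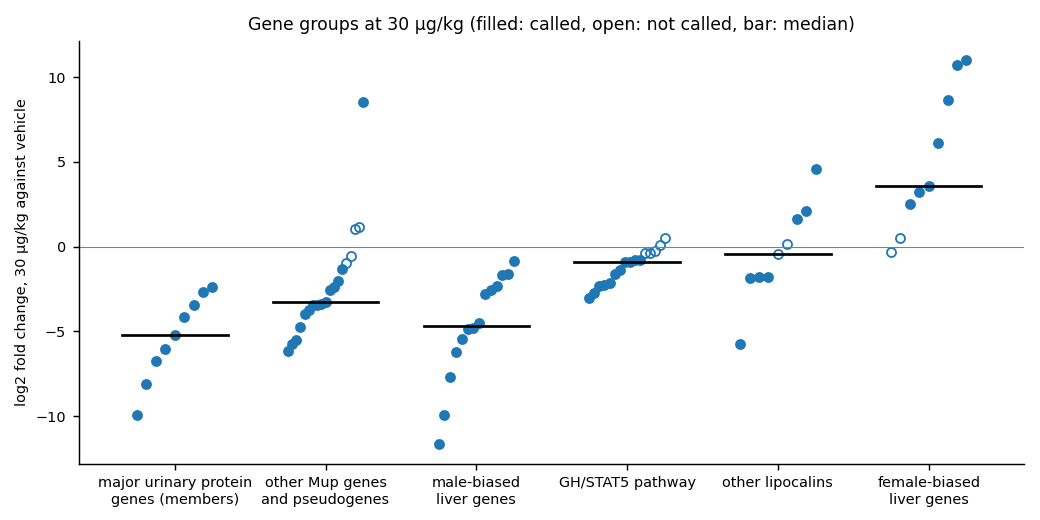
Log2 fold change against vehicle at 30 µg/kg for each tested gene of 6 groups, 1 point per gene, filled where called, with a bar at the group median. The points of Mup-ps10 and Sult2a1 are fitted values against vehicle groups at 0 counts. The members and the male-biased genes have the lowest medians, -5.20 and -4.65.

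Most markers of immune and stellate cells were called higher at 30 µg/kg, and most hepatocyte markers lower. Of all tested genes, 23.2% were called higher and 18.9% lower at that dose. In the 30 µg/kg mice the summed hepatocyte markers were at 37.8% of the vehicle mean and the summed members at 1.36%. All 6 macrophage and Kupffer cell markers were called higher, and their sum was 452 to 1123 CPM against 130 to 182 CPM in vehicle. Of 4 lymphocyte and neutrophil markers, 4 were called higher, with a sum of 26.5 to 42.4 CPM against 4.66 to 10.2 CPM. Stellate cell markers were called higher in 3 of 4, with a median sum of 336 CPM and a highest of 414 CPM against 35.4 to 76.1 CPM. Endothelial markers were higher in 2 of 4, with a sum of 190 to 254 CPM against 104 to 132 CPM, and cholangiocyte markers were higher in 3 and lower in 1 of 4, with a sum of 95.7 CPM in replicate 2 and 15.9 to 21.6 CPM in the other 4 mice against 14.4 to 19.3 CPM. No marker was at 0 in all libraries of a group, and the part of these shifts in the loss of the members was not tested. At 0.3 µg/kg Mup3 was at 65.1% of its vehicle level and not called in the shared fit. The hepatocyte sum was then at 82.1%, and 0 of 6 markers were called, beside 0.065% of all genes called lower. Of these 6 markers, 2 were called lower at 1 µg/kg, 4 at 3 µg/kg and 4 at 10 µg/kg. The shares of all genes called lower at these doses were 0.637%, 2.22% and 8.13%. Of the 9 tested members, 0, 1 and 5 were called lower at those doses.

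Over all 40 libraries the genes whose log2 levels were most like the mean log2 level of the 9 tested members, among 8829 compared, were C9 (Pearson r 0.970), C6 (0.970), Elovl3 (0.965), Selenbp2 (0.964) and Hc (0.964). C6, C9 and Hc encode terminal complement proteins. The libraries share dose groups, so these correlations describe common dose profiles and carry no test. C9 had a log2 fold change of -3.94 ± 0.44 at 30 µg/kg, C6 -2.81 ± 0.30 and Hc -2.89 ± 0.24, each smaller in size than the members' median of -5.20.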

How the data were processed

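RNA of 40 mouse livers, collected within 3 hours of lights on, was sequenced as 150 bp paired-end reads. The submitters' processing notes name FastQC 0.11.7, Trimmomatic 0.39 and STAR 2.7.3a and the builds GRCm39 and mm10. The authors deposited raw read counts per gene from STAR for each library. Counts on the first strand setting were 50.0% to 50.3% of both, so the unstranded column was used, and antisense or overlapping genes share reads. Reads mapped to several places are not counted. GENCODE M21 named 52083 of 55359 identifiers, and no member overlaps another gene there. The authors also deposited a table of log2 values for the same libraries, used as an alternative only.

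Groups came from the labels. Counts were scaled by TMM, filtered with filterByExpr and fitted with 1 mean per group over 40 libraries in edgeR 4.0.16 (quasi-likelihood test, R 4.3.3). The study's own rule combined a fold of 1.5 with a posterior probability, for which an adjusted p under 0.05 stood in. Trends used ordered steps 0 to 7. Shares were compared as log2((count + 0.5)/(other members' counts + 0.5)) by exact permutation. Library totals were 15496128 to 20967093 counts. Intervals and floors (3 counts) cover counting error only. The test was checked on simulated counts in which each gene had the same spread in all groups. That check does not cover a gene such as Mup3, whose spread differed between groups. The labels do not say whether mice shared a cage or litter, and p-values measure the spread between the mice given.

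Alternatives were DESeq2 1.42.0, limma 3.58.1 on the log2 table, other scalings and filters, the strand-specific column, each run of the title numbering (up to 27 and from 28) and libraries left out. The rule for named genes was all members, other tested Mup features, and up to 4 genes per list with the largest change, with Ghr, Stat5b, Socs2 and Igf1 added; some genes the rule names are not reported here by name, though list counts and medians include them. Likeness was the Pearson r with the mean over the 9 tested members, on log2 CPM (prior count 2) less its vehicle mean, among genes with a vehicle mean of at least 100 counts. Members and lists were chosen with earlier results of these data known. Sex-biased, pathway and marker lists came from general knowledge.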

Additional observations from a re-analysis of the deposited data

Results flagged for a closer look

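Of 88 tests of a single mouse within a group of 5, 10 found a mouse far from the other 4, by a gap to the nearest mouse above 0.710 of the group's range, and chance alone gives about 1 in 20. Most of them, 6, are replicate 1 at 30 µg/kg: 128 CPM of Mup3 (the next mouse had 34.2), 2.50 CPM of Mup7 (0.0842), 0.601 CPM of Mup1 (0.168), 3.28 CPM of Mup14 (0.927), 38.6 CPM of Mup21 (11.5) and 0.324 CPM of Mup10 (0.0421). That mouse also had the highest Alb level of its group, 49800 CPM against 24300 to 40195 CPM, and the lowest summed macrophage markers, 452 CPM, while replicate 5, the other mouse of that dose with high members, had the highest, 1123 CPM. Replicate 5 at 30 µg/kg stood apart for Mup17, at 18.0 CPM with the next mouse at 6.89.

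Vehicle replicate 3 had 323 CPM of Mup17, with the next mouse at 85.3, and this mouse decides whether Mup17 was called at 10 µg/kg. Replicate 5 at 10 µg/kg had 203 CPM of Mup7 with the next at 79.3. Replicate 4 at 0.03 µg/kg had 9344 CPM of Mup3 with the next at 8705, a gap that is small beside the vehicle range.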

How the results depend on the processing

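The calls at 30 µg/kg were the steadiest: 9 or 10 members when any 1 library of vehicle or that dose was left out, 9 within the lower title numbers and 10 within the higher. Mup10 entered there with no filter (log2 fold change -2.32, adjusted p = 0.022) and with DESeq2 (-2.45, adjusted p = 0.0074), which gave no p for Mup3. The count at 10 µg/kg was 5. It was 4 to 6 with 1 library left out, losing Mup1 without vehicle replicate 4 and Mup17 without vehicle replicate 3 and gaining Mup14 without vehicle replicate 1 or 2. It was 1 among the lower title numbers and 1 without vehicle replicates 3 and 4, an alternative chosen after the data were seen, as were the fits without replicates 1 and 5 at 30 µg/kg and exact permutation tests of Mup3 alone, whose p of 0.00794 from 0.3 µg/kg up, the smallest possible, restates that no mouse overlapped vehicle. Mup3 itself was -3.49 and -3.60 within the lower and higher numbers at 10 µg/kg.

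The count at 3 µg/kg was 1 and became 0 within either run of the numbering, without those vehicle libraries and in all 10 fits without 1 library. It was also 0 with DESeq2, where Mup3, the member called, had no p. At 0.3 and 1 µg/kg it was 0, and 1 when vehicle and the dose were fitted alone. The step from 3 to 10 µg/kg gave 4 calls, Mup3 among them, and 2 with DESeq2, again with no p for Mup3. The shares that passed, 6 at 10 µg/kg and 7 at 30 µg/kg, were 4 to 7 at 10 µg/kg with 1 library left out and 0 within either run, where the smallest possible exact permutation p is 0.1. Causes were not tested.

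Some uncalled values at 10 µg/kg changed sign. Mup2 was 0.16 with total counts alone, 0.20 in the lower numbers, 0.045 without the vehicle libraries and -0.18 to 0.011 with 1 library left out. Mup21 was 0.051, 0.10 and 0.25 in the same 3 settings, 0.010 with limma and -0.38 to 0.15 with 1 library left out. Mup14 was 0.099 without the vehicle libraries. Total counts alone moved the median of all genes to 0.22 at 10 µg/kg and 0.52 at 30 µg/kg, and lower genes from 37.3% to 20.3% and from 44.9% to 19.6% of calls. No paired analysis was possible because replicate numbers follow accession order and pair no mice.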
